A study of Homo sapiens with 23 samples.

Results

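SFXN3 and IL23R are 2 of the 36085 annotated genes with a transcript in the RNA-seq files, and both were chosen by the size of their rise with doxycycline in the same libraries that are described here. Their RNA values are therefore given as a description, with no test, and tests are kept for genes and peaks that did not choose them. The RNA-seq files list 6 annotated transcripts of SFXN3 and 4 of IL23R among 188753 transcripts.

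The cells were NCCITs, an established human embryonal carcinoma line with pluripotent features. SCi-NCCITs are NCCITs that carry a tetracycline-inducible dCas9-KRAB on a piggyBac transposon. This is a catalytically dead Cas9 joined to the repressive KRAB domain. They also carry 2 constitutively expressed sgRNAs aimed at SVA transposons, and stable clones were selected with puromycin and geneticin. The paper states that these guides target LTR5Hs elements as well, which have the guide sequence in common with SVAs. RNA was compared between 3 libraries of SCi-NCCITs given 2 ug/mL doxycycline for 72 h and 3 libraries of the same cells without it, so the controls also carried the transgene and both guides, and no cells treated with doxycycline but lacking dCas9-KRAB or guides were measured. H3K9me3 and YY1 ChIP-seq had 2 libraries with and 2 without doxycycline, OCT4 ChIP-seq had 1 of each, and 1 further H3K9me3 library came from NCCITs without the transgenes. Nothing in the labels says whether replicates were separate cultures, so p-values measure the spread between these libraries, which may be technical.

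Sideroflexins are proteins of the inner mitochondrial membrane, and members of the family carry serine into mitochondria, where its carbon feeds one-carbon metabolism. SFXN3 is one member of that family. IL23R is the chain specific to the receptor for interleukin 23. It pairs with IL12RB1 and signals through JAK2 and TYK2 to STAT3, and it is best known on T helper 17 cells and other lymphocytes, not on pluripotent cells.

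SFXN3 (ENSG00000107819) lies on the plus strand at chr10:102790991-102800998 (GRCh37). Summed over its 6 annotated transcripts, it had 9.58, 7.78 and 20.8 estimated counts in the 3 libraries without doxycycline and 1045, 287.5 and 872.3 in the 3 with it. The groups did not overlap, and the second doxycycline library was well below the others. As CPM, a count scaled to the library's total of estimated counts, the level was 0.440 ± 0.197 without and 15.4 ± 8.63 with doxycycline (SD, n = 3 each). The log2 fold change fitted by edgeR, which also applies TMM factors for library composition, as in the CPM of all other genes named, was 5.17 (SE 0.600). In TPM, which divides each transcript by its length, the means were 0.524 and 9.06, a ratio of 17.3.

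IL23R (ENSG00000162594) lies on the plus strand at chr1:67604590-67725662. It had 4.04, 9.0 and 10.0 estimated counts without doxycycline and 297.8, 406.8 and 321.7 with it. All 3 treated libraries were far above all 3 controls and close to each other. The level was 0.252 ± 0.0270 CPM without and 7.06 ± 0.959 with doxycycline (SD, n = 3 each), with a fitted log2 fold change of 4.81 (SE 0.196). In TPM the means were 0.226 and 3.57, a ratio of 15.8. Among all genes 8.97% were called higher with doxycycline, and since the rise chose both genes, nothing is read from their place among these. In bulk RNA, more cells with a transcript and more RNA per cell cannot be told apart.

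**Figure D1:**
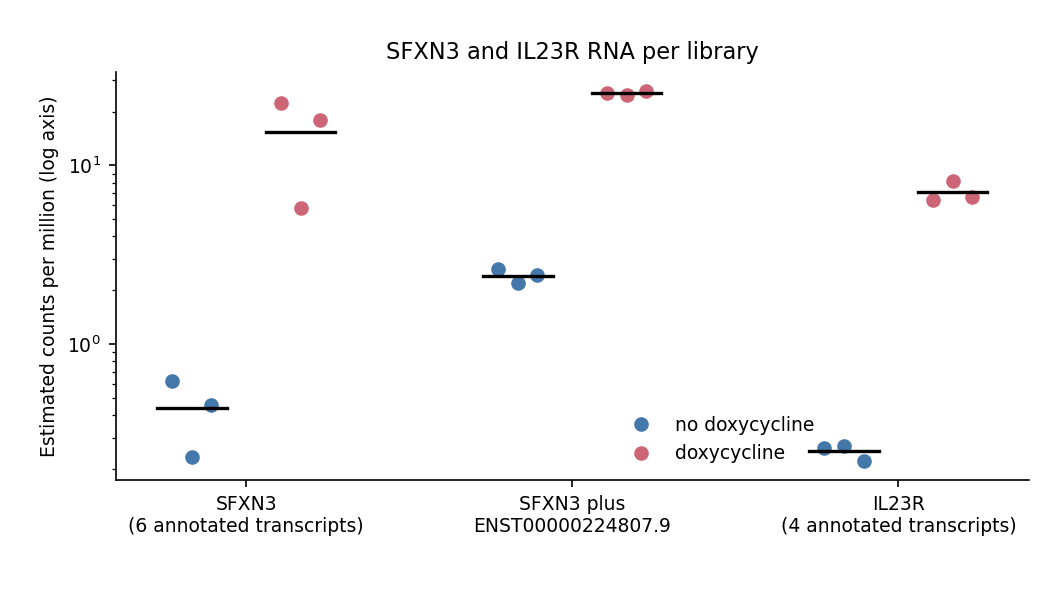
Estimated CPM (log axis) in each of the 6 RNA-seq libraries, for SFXN3 over its 6 annotated transcripts, for SFXN3 with ENST00000224807.9 added, and for IL23R. Points are libraries and lines are means of 3; the second doxycycline library of SFXN3 sits at 5.77 in the first set and at 24.8 in the second.

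The spread of SFXN3 among the treated libraries lay in its full-length transcript. ENST00000393459.5, the full-length coding transcript of 12 exons and 3098 nt, had 0.997, 1.504 and 1.16 estimated counts without doxycycline and 803.6, 17.9 and 623.7 with it. The second treated library was thus near the controls for this transcript. A transcript of 3089 nt that is absent from the annotation used here, ENST00000224807.9, had 143.7, 951.3 and 401.8 counts in the same 3 treated libraries. It was high where the full-length transcript was low. The sum of both was 20.4, 19.4 and 21.1 CPM with doxycycline, a coefficient of variation of 4.08% against 86.4% and 80.4% for each alone.

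ENST00000224807.9 was the only one of 22247 transcripts outside the annotation with a coefficient of variation of at least 50% of its own and of at most 5% in its sum with ENST00000393459.5. No file used here pairs it with a gene, so its place at SFXN3 rests on these counts, and it was singled out after the values were seen. In the controls it had 30.4, 65.2 and 90.2 counts, more than all 6 annotated transcripts together. With it added, SFXN3 was at 2.42 ± 0.213 CPM without and 25.5 ± 0.679 with doxycycline (SD, n = 3 each). The fitted log2 fold change was then 3.40 in place of 5.17, and the 3 treated libraries lay within 24.8 to 26.2.

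The shorter SFXN3 transcripts were steadier. ENST00000470252.1, of 3 exons at the 3′ end of the gene and with no coding sequence defined, had 6.01, 2.50 and 14.2 counts without and 118.8, 134.1 and 111.0 with doxycycline. ENST00000466982.1, of 2 exons in the same region, was listed at 0 in all 3 controls and at 98.9, 92.1 and 94.8 with doxycycline. The 3 remaining transcripts had at most 21.9 counts in any library. The full-length transcript held 76.9%, 6.23% and 71.5% of the annotated SFXN3 counts in the treated libraries.

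For IL23R the counts fell mainly on the full-length coding transcript. ENST00000347310.9, of 11 exons and 2912 nt, starts at position 67632137 of chromosome 1 and had 1.21, 0 and 4.09 counts without and 230.1, 349.1 and 282.5 with doxycycline. It held 83.6 ± 5.60% of the gene's counts with doxycycline (SD, n = 3). ENST00000637002.1, annotated as a target of nonsense-mediated decay, starts at the upstream first exon at position 67604590 and had 0, 5.07 and 0 counts without and 65.3, 53.9 and 39.2 with doxycycline. Each begins at an annotated first exon of IL23R. None of the 4 annotated IL23R transcripts in the files reaches another coding gene on the same strand. The transcripts outside the annotation were not checked for this. Where a listed transcript starts and ends is set by the annotation, not by the reads. These counts therefore cannot tell native IL23R RNA from read-through or from an unannotated start. The other 2 transcripts, which start inside the gene, had at most 5.88 counts in any library. The split of reads among transcripts that share exons is an estimate, with no error given in the files.

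**Figure D2:**
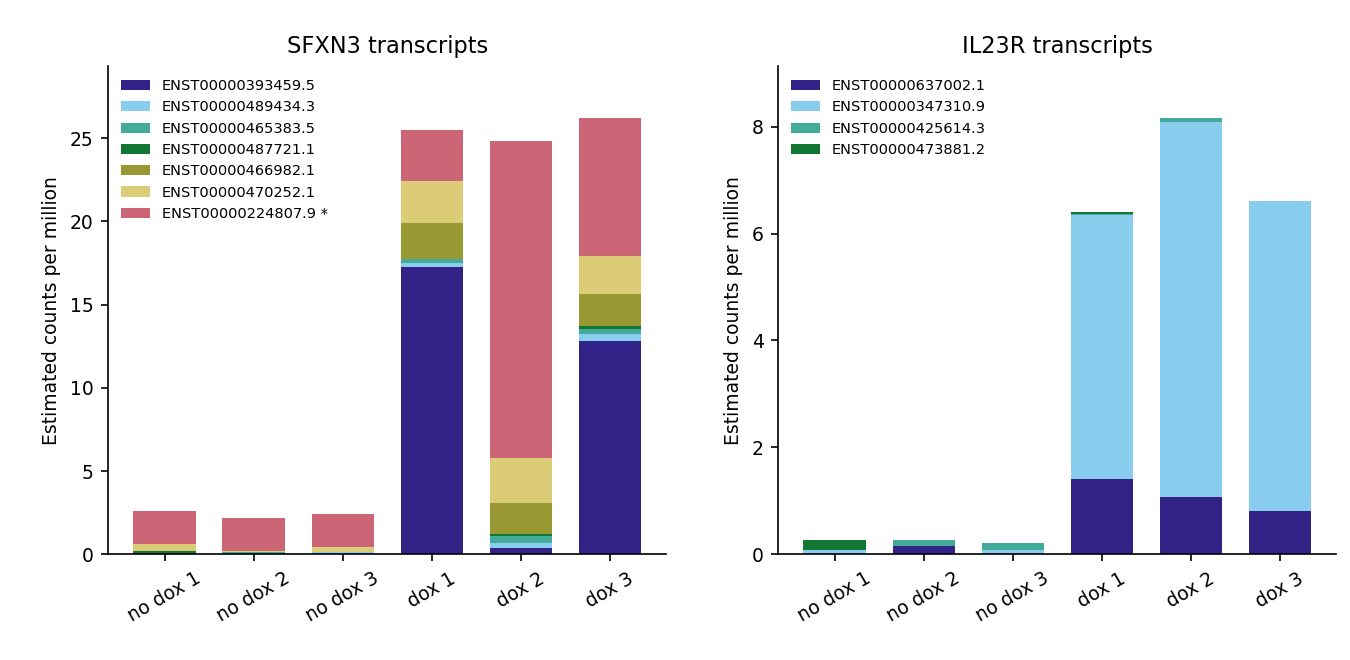
Stacked bars of each SFXN3 (left) and IL23R (right) transcript, as estimated CPM in the 6 RNA-seq libraries without (no dox 1 to 3) and with doxycycline (dox 1 to 3). The asterisk marks ENST00000224807.9, which is outside the annotation; its counts and those of ENST00000393459.5 sum to between 19.4 and 21.1 CPM in the 3 treated libraries.

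Genes around SFXN3 were then examined, since they did not choose it. Of 16 neighbours (genes with a base within 100 kb of an SFXN3 start, and the next coding gene on each side), 7 passed the filter on low counts. By edgeR's quasi-likelihood test with Benjamini-Hochberg adjustment over 16371 genes, 3 rose and 1 fell, against 17.5% of all genes called in either direction. The neighbours that rose most were the nearest tested gene on each side of SFXN3.

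PDZD7, which encodes a scaffold protein of the hair cell stereocilia, is transcribed away from SFXN3 on the minus strand. Its 3 main transcripts start 101 to 129 bases before the SFXN3 start, and the exons of the genes share 0 bases. Its level was 5.11, 3.94 and 4.18 CPM without doxycycline and 14.1, 12.9 and 31.4 with it. The groups did not overlap, and the highest value came from the third treated library, where ENST00000619208.6 had 1069 counts against 235 and 258 in the other treated libraries. The log2 fold change was 2.17 (SE 0.338, adjusted p = 0.00298, edgeR). A PDZD7 transcript annotated across the SFXN3 start, ENST00000644576.1, was at 0 in all 6 libraries.

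KAZALD1, which encodes a secreted protein with a Kazal-type domain, starts 30.8 kb after the SFXN3 start on the same strand. It was at 1.23, 2.40 and 2.53 CPM without and 4.62, 4.69 and 4.44 with doxycycline, again with no overlap. The log2 fold change was 1.08 (SE 0.2003, adjusted p = 0.00672, edgeR). Neither this call nor that of PDZD7 was lost under the alternatives tried. The first untreated library, the shallowest, held 18 of its counts.

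Farther neighbours changed less. LZTS2, whose start is 34.6 kb before that of SFXN3, rose by 0.26 on the log2 scale (adjusted p = 0.0267, edgeR), and SLF2, with its start 118 kb before, fell by 0.24 (adjusted p = 0.0442). Both calls were lost without the second or the third untreated library or without the first or the second treated one, with adjusted p between 0.0750 and 0.110 for LZTS2 and between 0.0991 and 0.178 for SLF2, and with length-scaled counts (0.122 and 0.103). MRPL43, SEMA4G and TWNK had log2 fold changes of 0.11, 0.24 and -0.01 and did not pass the test. TLX1, a homeobox gene, had at most 16 counts in a library and was not tested.

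None of the 4 tested neighbours of IL23R passed the test, of 11 in all, where 17.5% of all genes were called in either direction. With 4 genes this cannot be told from that share. IL12RB2, the signalling chain of the interleukin 12 receptor and the next coding gene in the same direction, was at 2.57 ± 0.131 CPM without and 2.82 ± 0.0364 with doxycycline (SD, n = 3 each), with a log2 fold change of 0.13 (SE 0.126, adjusted p = 0.500, edgeR). SLC35D1, MIER1 and SERBP1 had log2 fold changes of 0.19, 0.01 and -0.14, with adjusted p of 0.0774, 0.937 and 0.0760. The unadjusted p (edgeR) was 0.0173 for SLC35D1, 0.0169 for SERBP1, 0.885 for MIER1 and 0.314 for IL12RB2. DESeq2 called SERBP1 (adjusted p = 0.0298). C1orf141 runs antisense across the IL23R start and 92947 bases of the gene, had at most 3 counts in a library, and shares 0 exon bases with it.

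**Figure D3:**
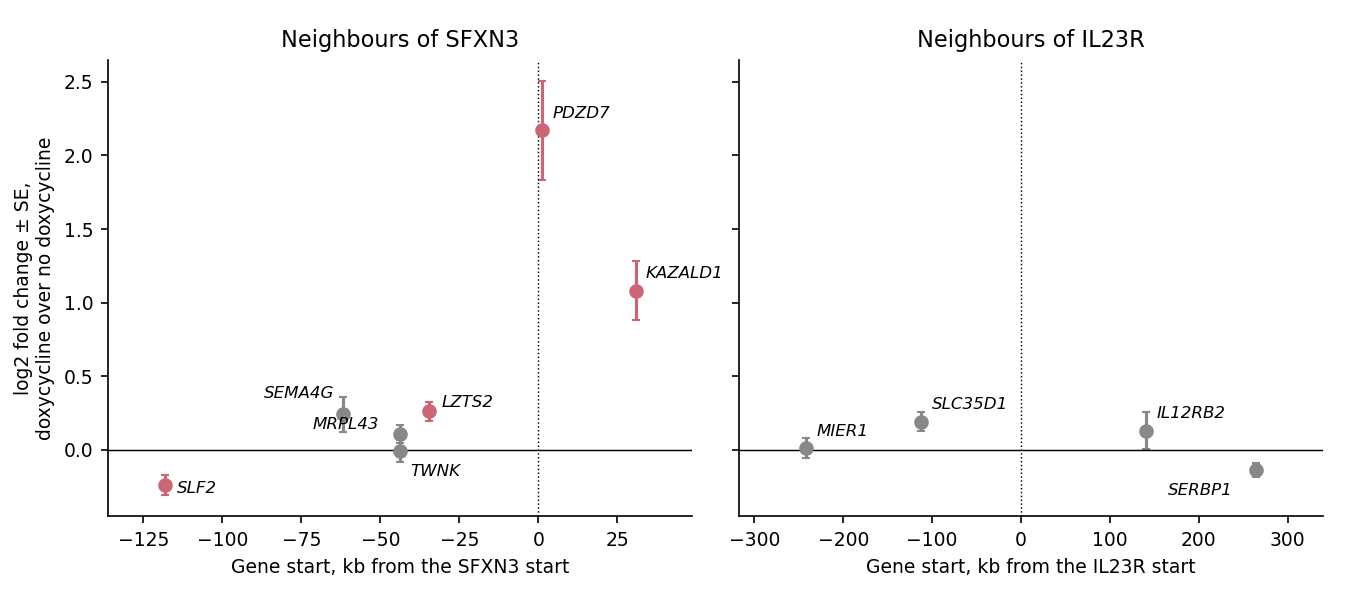
Fitted log2 fold change (± SE) of each tested neighbour against the distance of its outermost annotated start from that of the leading transcript of SFXN3 (left) or IL23R (right), in kb; that of PDZD7 belongs to ENST00000644576.1, which had no counts. Red points passed an adjusted p of 0.05; PDZD7 and KAZALD1 stand at 2.17 and 1.08, and the 4 neighbours of IL23R lie between -0.14 and 0.19.

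Chromatin around the genes was read from the peak lists. H3K9me3 is a mark of repressed chromatin that KRAB recruits, YY1 is a zinc-finger factor bound at many promoters and enhancers, and OCT4 is a pluripotency factor. Peaks were counted from 100 kb before a gene's first annotated start to 100 kb after its last. The window is therefore longer for genes whose starts lie far apart: 206.7 kb for SFXN3 and 268.7 kb for IL23R. Fold enrichment is that of a peak over local background as listed by the authors, and the libraries differ in how many peaks they list, from 56370 to 115673 for YY1 and from 123014 to 181332 for H3K9me3. For OCT4 the library without doxycycline lists 50775 peaks and the library with it 23352.

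SFXN3 lay in a window almost free of H3K9me3. The untransfected NCCIT library had 0 peaks, the libraries without doxycycline had 1 and 0, and those with it had 1 and 0, where the median protein-coding gene had 7 or 8 in each library. The single peaks were 68.6 kb (doxycycline) and 102.8 kb (no doxycycline) after the start. No H3K9me3 peak lay between 10 kb before the first and 10 kb after the last SFXN3 start in any of the 5 libraries. In the same kind of span 45.7% to 54.4% of protein-coding genes had one. That share includes genes with widely spaced starts, whose spans are longer. The mean number of peaks was the same in both conditions (difference 0, two-sided exact permutation p = 1, where the smallest that 2 against 2 allows is 0.33).

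YY1 was listed 0.9 kb before the SFXN3 start in all 4 libraries, over an exon of PDZD7. Its fold enrichment was 2.76 and 4.19 without and 4.44 and 5.49 with doxycycline. Both treated values were above both controls. Over the whole window 8 loci had a YY1 peak in all 4 libraries, and at 2 of them both treated folds were above both others, against 40.6% of such loci genome-wide. The other was the strong locus in LZTS2, 31.0 kb before the start, with folds of 11.3 and 9.30 without and 15.7 and 14.7 with doxycycline. The locus at the KAZALD1 start had 4.26 and 15.8 without and 7.67 and 22.5 with doxycycline, and the groups overlapped. No locus was listed only in both treated libraries, and 1, 19.2 kb after the start, was listed only in both controls (0.242% of loci genome-wide, with at least 1 in the windows of 4.92% of protein-coding genes).

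The window held 15 and 17 YY1 peaks without and 12 and 22 with doxycycline (difference 1, exact permutation p = 1), where the median protein-coding gene had 7 and 8 without and 10 and 12 with it. With the same number of strongest peaks taken from each library the difference was -3.5, and without the second treated library it was -4. OCT4 had 4 peaks in the window without doxycycline and 0 with it, the strongest of them 30.1 kb after the start, ahead of KAZALD1, with a fold of 6.63. Of all OCT4 loci 56.8% were listed only without doxycycline, and with equal numbers of strongest peaks the window held 1 and 0. Each condition has 1 OCT4 library, and no test was made.

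**Figure D4:**
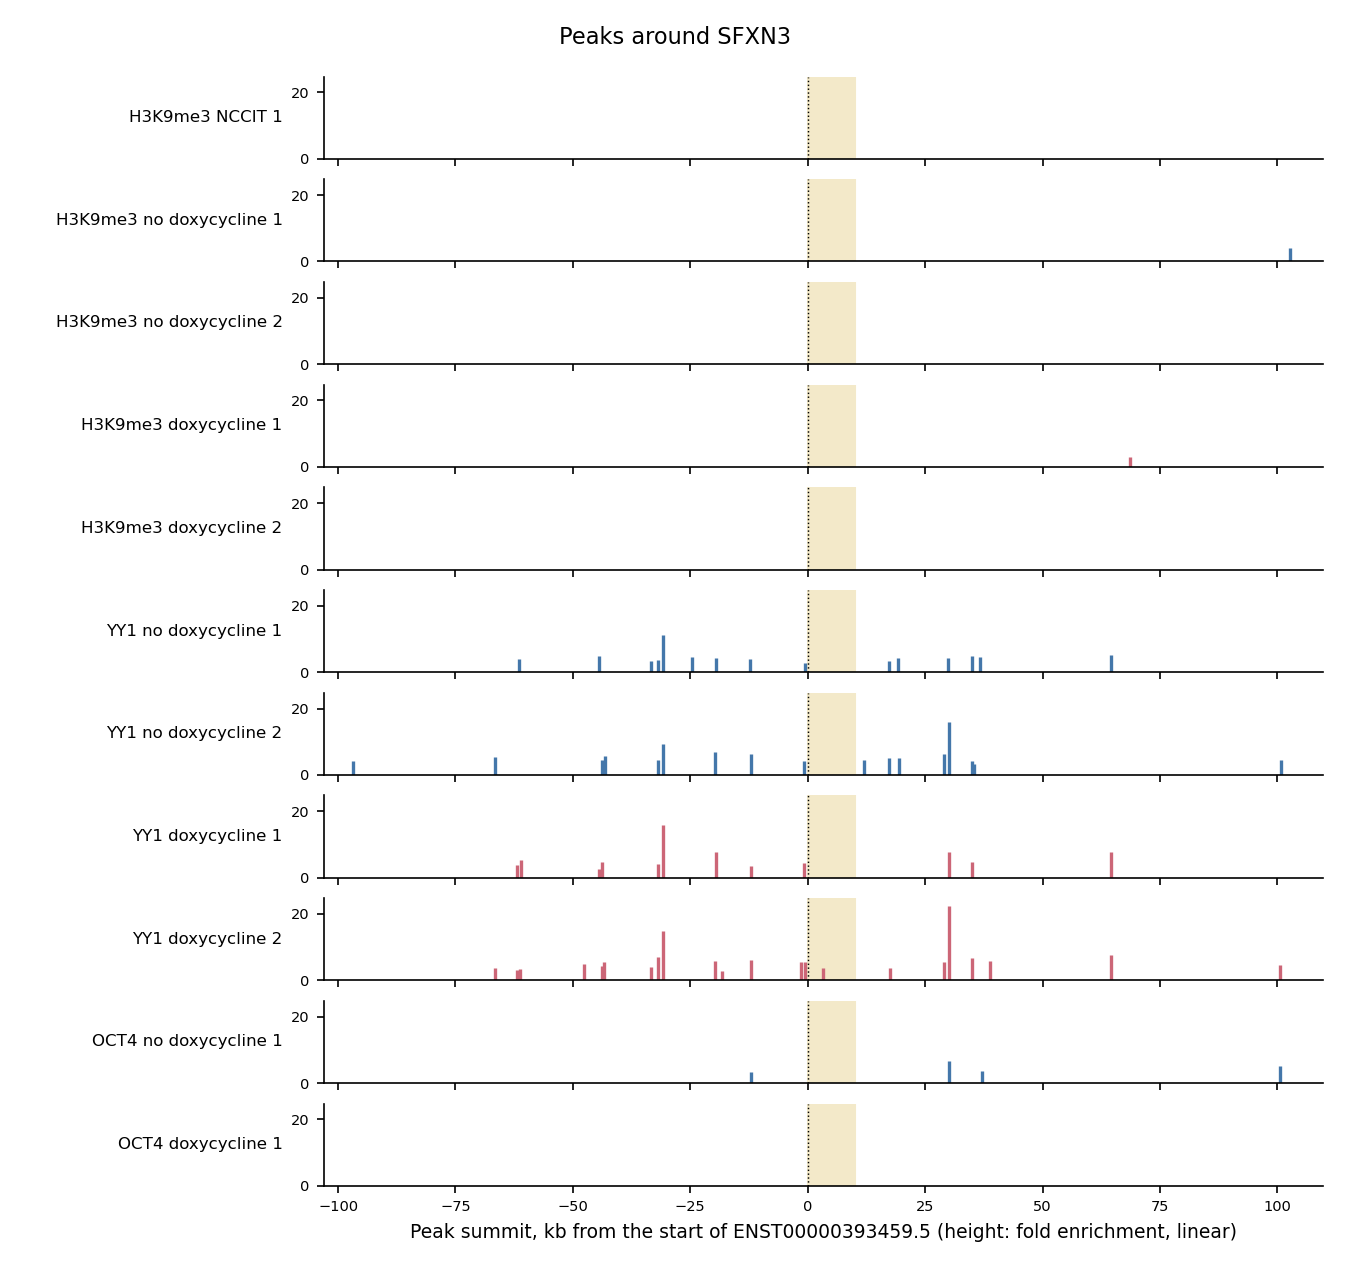
Peaks around SFXN3 in each ChIP-seq library, placed by the distance of the summit from the start of ENST00000393459.5 (kb) with height as fold enrichment (linear). The shaded band is the gene; the H3K9me3 tracks hold at most 1 peak, and YY1 is listed just before the start in all 4 libraries.

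A pair of sequences at the SFXN3 start is shown, since SFXN3 and PDZD7 start here. The first is the RefSeq promoter of SFXN3 (GRCh38.p14, plus strand, 300 bases), which matches GRCh37 exactly at chr10:102790741-102791040 and so also holds the PDZD7 start. The second is the 201 bases on the YY1 summit of the second treated library, chr10:102790310-102790510 (GRCh37, plus strand). Capitals mark a YY1 core (AANATGGC, either strand) or an octamer bound by OCT4 (ATGCAAAT, either strand), and neither sequence holds one. Of all 35116 RefSeq promoters, 6.58% hold the YY1 core and 1.77% the octamer, and the YY1 core is in 35.9% of the YY1 summit windows of that library.

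SFXN3 promoter: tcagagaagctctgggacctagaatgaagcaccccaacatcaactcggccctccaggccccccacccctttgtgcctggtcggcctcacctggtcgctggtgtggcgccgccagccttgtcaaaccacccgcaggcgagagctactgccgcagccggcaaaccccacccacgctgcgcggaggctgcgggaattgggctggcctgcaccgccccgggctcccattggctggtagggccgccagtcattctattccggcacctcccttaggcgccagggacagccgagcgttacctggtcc
YY1 before SFXN3: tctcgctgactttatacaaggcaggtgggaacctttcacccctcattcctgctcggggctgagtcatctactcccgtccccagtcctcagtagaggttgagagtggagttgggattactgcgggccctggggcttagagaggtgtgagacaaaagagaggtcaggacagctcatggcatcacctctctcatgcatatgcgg

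IL23R, in contrast, lay among many H3K9me3 peaks in untreated cells. Its window held 21 peaks in NCCITs, 20 and 23 in SCi-NCCITs without doxycycline and 18 and 24 with it, and between 11.6% and 13.2% of protein-coding genes had as many or more in the same library. The strongest locus, over the 3′ part of the gene at chr1:67708716-67719367, had folds of 16.04 and 16.4 without and 14.2 and 15.8 with doxycycline, and was also marked in NCCITs. Both treated values were below both controls there, as at 23.9% of loci marked in all 4 libraries genome-wide. The other 10 such loci in the window had overlapping values except 1, 93.6 kb before the start of the leading transcript, where both treated folds (6.05 and 3.67) were above both controls (3.54 and 3.51), as at 6.21% of loci genome-wide. The mean number of peaks did not pass the test (difference -0.5, exact permutation p = 1), and its sign changed without 1 library: it was 1 without the second untreated library and 2.5 without the first treated one.

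One H3K9me3 locus was listed only with doxycycline. At chr1:67619942-67622006, in an intron of the IL23R transcripts that begin at the upstream exon and 11.2 kb before the start of the leading transcript, peaks were listed in both treated libraries, with folds of 4.26 and 7.51 and -log10 q of 4.18 and 18.7. No peak was listed there in either untreated library or in NCCITs. The 201 bases on its summit in the second treated library lie on a repeat. They have many genome matches of at least 90% identity over at least 80% of their length. Peaks were called from reads filtered on mapping quality, and how well reads could be placed at this repeat was not tested. Such loci were 0.846% of all H3K9me3 loci, and 14.2% of protein-coding genes had at least 1 in a window of this kind. IL23R RNA was higher in the condition in which this mark was listed, and a link between them was not tested.

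YY1 peaks were more numerous around IL23R with doxycycline, as they were genome-wide. There were 12 and 13 without and 18 and 22 with doxycycline, a difference of 7.5 that was larger than the spread of either pair, with the smallest p that 2 against 2 allows (exact permutation p = 0.333). The median protein-coding gene had 7 and 8 without and 10 and 12 with doxycycline. Taking the 56370 strongest peaks of each library left a difference of 4.5. Of 10 loci listed in all 4 libraries, 7 had both treated folds above both controls, against 40.6% genome-wide. The median ratio of mean folds was 1.33 at these loci and 1.25 over all loci of this kind.

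The largest of these changes lay inside the gene. The locus at chr1:67640279-67641235, intronic and 8.6 kb after the start of the leading transcript, went from 7.12 and 10.3 to 14.2 and 18.9. The locus at chr1:67647715-67648648, which covers an IL23R exon 16.04 kb after that start, went from 5.07 and 7.51 to 11.96 and 11.7. Their ratios of mean folds were 1.90 and 1.88. At the IL12RB2 start, 141.3 kb away, the folds were 2.97 and 3.10 without and 4.94 and 5.14 with doxycycline, although IL12RB2 RNA did not pass its test.

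Of the YY1 loci, 2 were listed in both treated libraries and in neither control, as were 6.49% of YY1 loci genome-wide, and 27.2% of protein-coding genes had as many or more in their own windows. The first, at chr1:67622160-67622562, began 154 bases past the H3K9me3 locus seen only with doxycycline and had folds of 3.70 and 4.56. The second, at chr1:67717519-67717891, lay over an exon within the strongest H3K9me3 locus and had folds of 4.60 and 6.25. No YY1, H3K9me3 or OCT4 peak lay within 1 kb of an annotated IL23R start in any library, whereas 58.0% to 66.2% of protein-coding genes had a YY1 peak there. An H3K9me3 peak was there in 7.85% to 12.9% of genes, and an OCT4 peak in 39.1% without and 8.005% with doxycycline.

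OCT4 was listed at 7 loci near IL23R. The locus nearest to a start, at chr1:67602860-67603271 and 1.5 kb before the upstream first exon, was kept, with a fold of 7.57 without and 8.16 with doxycycline. At the other 2 loci listed in both conditions, 58.7 and 83.8 kb after the start of the leading transcript, the fold was 6.92 and 5.85 without and 3.82 and 4.02 with doxycycline. A further 3 loci were listed only without doxycycline and 1 only with it, the latter kind being 5.24% of OCT4 loci genome-wide.

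**Figure D5:**
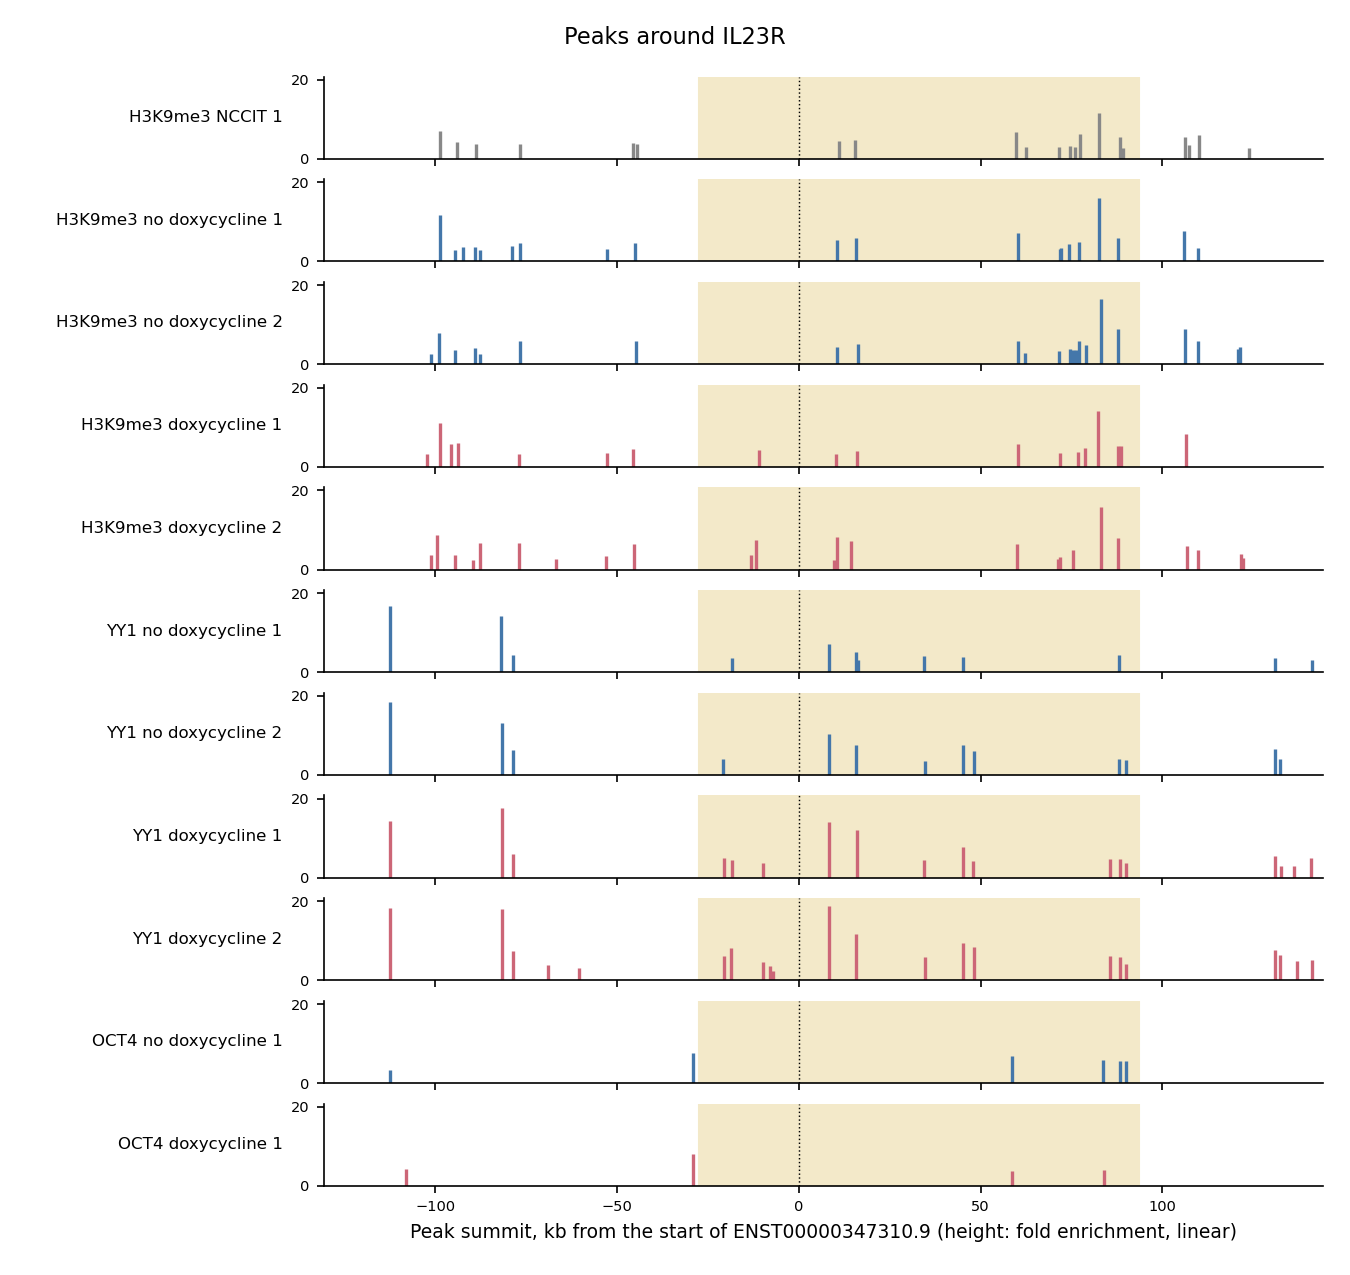
Peaks around IL23R in each ChIP-seq library, placed by the distance of the summit from the start of ENST00000347310.9 (kb) with height as fold enrichment (linear). The shaded band is the gene; the H3K9me3 peaks about 11 kb before the start are present only in the treated libraries, and the YY1 peaks at 8.6 and 16.04 kb are higher in both treated libraries.

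The sequences on these summits are given as 201 bases of the GRCh37 plus strand each, with capitals as above. They are the first YY1 locus seen only with doxycycline (chr1:67622221-67622421), the strongest YY1 locus in the gene (chr1:67640501-67640701) and the OCT4 locus kept before the gene (chr1:67602977-67603177). The intronic YY1 summit holds 1 YY1 core, as do 35.9% of the YY1 summit windows of its library, and the others hold neither motif.

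YY1 before IL23R: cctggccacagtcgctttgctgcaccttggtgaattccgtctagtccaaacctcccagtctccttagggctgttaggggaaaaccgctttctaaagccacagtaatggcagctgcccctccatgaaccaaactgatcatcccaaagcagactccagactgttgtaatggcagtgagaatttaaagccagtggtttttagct
YY1 in IL23R: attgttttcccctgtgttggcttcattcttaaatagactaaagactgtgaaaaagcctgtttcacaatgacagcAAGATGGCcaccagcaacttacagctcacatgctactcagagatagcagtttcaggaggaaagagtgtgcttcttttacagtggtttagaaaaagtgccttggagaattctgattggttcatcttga
OCT4 before IL23R: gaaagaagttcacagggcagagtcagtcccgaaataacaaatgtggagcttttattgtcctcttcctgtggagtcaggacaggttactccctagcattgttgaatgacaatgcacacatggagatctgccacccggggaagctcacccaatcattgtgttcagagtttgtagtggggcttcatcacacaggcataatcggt

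The rest of each gene's pathway was tested in the same fit. Of 25 genes in the sideroflexin and one-carbon list, all tested, 2 rose and 7 fell, which is 9 called against 17.5% of all genes, and the median log2 fold change was -0.15 beside -0.003 over all genes. Within the family, SFXN1, the main mitochondrial serine carrier, rose by 0.30 (SE 0.0565, adjusted p = 0.00672, edgeR) from 88.7 to 109.8 CPM, a call lost with length-scaled counts (adjusted p = 0.0855). SFXN2 fell by 0.66 (SE 0.116, adjusted p = 0.00548) from 20.5 to 12.9 CPM. SFXN4 and SFXN5 had log2 fold changes of 0.25 and -0.20 and did not pass.

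Of the 3 genes of serine synthesis 2 fell, and of the 5 of mitochondrial one-carbon metabolism 2 fell. Among all 16371 genes tested 1389 fell, and groups this small were not tested against that share. PSAT1 and PSPH, the later enzymes of serine synthesis, fell by 0.24 and 0.32, and PHGDH, the first, had a log2 fold change of -0.08 and did not pass. MTHFD2 and MTHFD1L, of the mitochondrial one-carbon chain, fell by 0.30 and 0.25. GLDC, of the glycine cleavage system, fell by 0.44, while AMT of the same system rose by 0.24. Adjusted p for these ran from 0.00136 for GLDC to 0.0401 for AMT. The call for AMT was lost without the second or the third untreated library or the first or the second treated one (adjusted p from 0.127 to 0.153) and that for PSAT1 without the third untreated or the first or the second treated library (from 0.0519 to 0.0550). With length-scaled counts AMT (0.322) and MTHFD1L (0.147) were lost.

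Of 22 genes of the IL-23 pathway 13 were tested, and 1 rose and 0 fell, where 17.5% of all genes were called in either direction, with a median log2 fold change of -0.08. The ligand chain IL23A was at 1.26 ± 0.244 CPM without and 1.75 ± 0.376 with doxycycline (SD, n = 3 each) and did not pass (adjusted p = 0.223, edgeR). IL12B, its partner chain, had at most 1 count in a library. The partner receptor IL12RB1 was at 0.318 CPM without and 0.224 with doxycycline and did not pass. The kinases JAK2 and TYK2 and the factor STAT3 were at 5.49, 44.7 and 285.8 CPM without and 5.96, 54.3 and 270.7 with doxycycline, and none passed the test. TYK2 was called with no filter on low counts (adjusted p = 0.0338), with the replicate block (0.0492) and by DESeq2 (0.0253).

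SOCS3, an inhibitor of this signalling that STAT3 induces, was the gene that rose, by 0.49 on the log2 scale (SE 0.139, adjusted p = 0.0404, edgeR), from 4.87 to 6.71 CPM. The call was lost without the second or the third untreated library or the second or the third treated one (adjusted p from 0.101 to 0.143) and with length-scaled counts (0.0732). With the replicate number as a block the count of called genes in this list was 3, with DESeq2 2. IL17A and CSF2, cytokines of T helper 17 cells, were at 0 in all 6.

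Markers were checked for other cells. The 12 pluripotent markers were all tested, and their summed level was 3878 to 4185 CPM without and 3090 to 3343 with doxycycline. Of these 5 fell (NANOG, TDGF1, DNMT3B, L1TD1 and SALL4), where 1389 of all 16371 genes tested fell. The other 7 did not pass: POU5F1, SOX2, LIN28A, LIN28B, DPPA4, PODXL and TNFRSF8. Of 12 blood markers 6 were tested, with a summed level of 28.6 to 30.9 CPM without and 32.3 to 34.5 with doxycycline, of which CD4 alone made 20.8 to 21.8 on average. CD8A (log2 fold change 0.95) and KLRB1 (1.51) rose, where 8.97% of all genes were called higher. The defining markers PTPRC, CD3D, CD3E and NKG7 were at or below 0.315 CPM in every library. Differentiation markers summed to 2.08 to 3.68 and 4.66 to 5.11 CPM, and GATA6, 1 of the 5 tested, rose (1.46).

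The genes next to them in the order of fitted rise, the measure that chose both, are given as a description, among genes with no overlap between groups and a mean of at least 1 CPM. The gene above them was ZNF10 (5.19), the gene of KOX1, whose KRAB domain is the one commonly used in dCas9-KRAB, and those below were CSF3 (3.65), FOXD1 (3.44), LOXL4 (3.34), OLFML2A (3.16) and LHFPL4 (2.91). With ENST00000224807.9 added, the SFXN3 value of 3.40 falls between those of FOXD1 and LOXL4. Likeness over the 6 libraries was taken as the Euclidean distance of centred log2 CPM. This distance depends on the size of the rise, so it too uses the measure that chose both genes and is only a description. The genes most like IL23R were ZNF10 (0.924), CSF3 (1.29) and ENSG00000248452 (1.38). For SFXN3 they were ZNF10 (1.85), IL23R (2.03) and CSF3 (2.25).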

How the data were processed

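RNA-seq files hold, per transcript, the estimated count and the TPM that the authors made with kallisto. Libraries were made with a directional kit, and Ensembl annotation is named for a STAR index, but kallisto's own transcript set, strand setting and version are not given in the sources used here. The deposited peak lists (BWA alignment to hg19, mapping quality above 10, duplicates removed, called per library at 5% FDR) hold a fold ratio over background and the -log10 p-value and -log10 q-value as deposited by the authors. The table of YY1 HiChIP contacts was not used, since its header ties no column to a condition.

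Transcripts were matched without version to GENCODE v44lift37 (88.2% placed), and the estimates of a gene's transcripts were added up and rounded to whole numbers. Totals were 15305909, 33286581 and 45295427 without and 46562047, 49878613 and 48638063 with doxycycline; counts near 10 are imprecise. Low genes were removed with filterByExpr, TMM factors applied, and edgeR 4.0.16 (R 4.3.3) quasi-likelihood tests fitted to 3 against 3 libraries, with Benjamini-Hochberg adjustment and a threshold of 0.05. On simulated counts (16371 genes, 200 changed) 91% of genes changed by 1 and 100% by 2 on the log2 scale were recovered. The simulation gave every gene the same dispersion, the median over genes, so these shares do not cover genes that vary more. Alternatives were DESeq2 1.42.0, its size factors, other filters, the replicate number as a block, length-scaled counts and leaving out libraries. Peaks were counted in Python 3.11.15 and loci merged over the libraries of an antibody.

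The members and all lists were chosen with earlier results of these data known. Genes named are both members, every tested neighbour, list genes past the threshold or 2 to 4 with the highest level, the 3 genes most like each member, and the 5 ranked on each side of it. ENST00000224807.9, genes named at low counts, the markers named and list genes named for their role without passing the test (SFXN4, SFXN5, IL23A, IL12RB1 and JAK2) were added after their values were seen. Some list genes and 1 sequence are not reported here.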

Additional observations from a re-analysis of the deposited data

Results flagged for a closer look

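ENST00000224807.9 stands outside the annotated transcripts, and its counts were above the control libraries: 10.1 ± 8.16 CPM with doxycycline against 1.98 ± 0.0180 without (SD, n = 3 each, scaled to total estimated counts). It was higher in each treated library than in every control, and highest in the treated library where ENST00000393459.5 was lowest.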

How the results depend on the processing

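With length-scaled counts from TPM, called genes went from 2858 to 1901, called neighbours from 4 to 2, called IL-23 pathway genes from 1 to 0, and the log2 fold changes of SFXN3 from 5.17 to 4.19 and of IL23R from 4.81 to 4.04. With ENST00000224807.9 added, an alternative chosen after seeing the data, SFXN3 was at 3.4. Called IL-23 pathway genes were 2 with no filter on low counts, 3 with the replicate block and 2 with DESeq2. Leaving out 1 library gave 1396 to 3259 called genes (1396 without the second treated and 1469 without the second untreated library), 2 to 4 neighbours, 7 to 10 one-carbon genes, 0 to 1 IL-23 pathway genes, 4.79 to 5.56 for SFXN3 and 4.69 to 4.89 for IL23R. The difference in share on the leading transcript was 39.8 percentage points for SFXN3 (27.1 to 62.4) and 60.0 for IL23R (48.2 to 68.6).

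Peak differences near SFXN3 ran, over left-out libraries, from -0.5 to 0.5 for H3K9me3 and from -4 to 6 for YY1; YY1 turned to -0.5 in a 50 kb window and to -3.5 with equal numbers of peaks, and OCT4 came to 0 in a 10 kb window. Near IL23R they ran from -3.5 to 2.5 for H3K9me3 and from 5.5 to 9.5 for YY1, and H3K9me3 turned to 1 in a 50 kb and 2 in a 10 kb window. These smaller windows also run from before the first start to after the last. For IL23R the 10 kb window thus holds the H3K9me3 locus listed only with doxycycline, which is 16.4 kb past the first start. The cause of the changes in peak differences was not tested.

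Whether replicate numbers pair the RNA libraries is not settled by these values. Deviations of same-numbered libraries correlated at 0.128, 0.0799 and -0.000942 over genes. Those of libraries with different numbers correlated at -0.127 to 0.0598. With the number as a block 3316 genes, 4 neighbours and 11 one-carbon genes were called, with 5.06 for SFXN3 and 4.82 for IL23R. Requiring 10 counts in every library removed both members, whose control counts are too low. With 2 ChIP libraries a condition no p below 0.33 was possible, and the first untreated RNA library was the shallowest.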
